A study of Mus musculus with 15 samples.

Results

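Small nucleolar RNA (snoRNA) host genes are transcribed for the snoRNAs inside their introns. The 8 genes described here, Snhg1, Snhg3, Snhg5, Snhg6, Snhg8, Snhg11, Snhg12 and Gas5, were chosen by name, and a gene's rows were those carrying its symbol. In retina at postnatal day 2 (P2), 7 of the 8 had rows, out of 16098 gene symbols in all, and the 7 accounted for 50 transcripts. Snhg1 had no row under its name, so its own level is not analysed here. Snhg8 was the member with a called transcript. Its spliced transcript fell from 14.8 to 2.02 FPKM between control and Neurog2 mutant retinas in the authors' deposited table (log2 fold change -2.87 ± 1.01, q = 0.0388). The summed levels of the other 6 members had log2 ratios between -0.18 and 0.20 in the 3 comparisons, and none of their transcripts passed the test.

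The host transcript is spliced and capped, and its introns are trimmed to release snoRNAs. Box C/D snoRNAs guide 2'-O-methylation of ribosomal RNA and box H/ACA snoRNAs guide its pseudouridylation, while a few, such as the Snora73 (U17) family, act in cutting the ribosomal RNA precursor. The leftover exons code for little or no protein, and many such transcripts are destroyed on ribosomes by nonsense-mediated decay (NMD). Several hosts begin with a run of pyrimidines, the 5' terminal oligopyrimidine (TOP) element shared with ribosomal protein mRNAs, which ties their translation to growth signals. Gas5 takes its name from its rise in growth-arrested cells. Neurog2 is a basic helix-loop-helix (bHLH) transcription factor of dividing retinal progenitors, and such factors bind E-box sequences (CANNTG).

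The study sequenced total RNA from CD-1 mouse retinas at P2, in 15 samples that fall into 3 groups of 5. WT retinas were Neurog2CKO/CKO, with both Neurog2 copies floxed and no Cre. HET retinas were Chx10Cre;Neurog2CKO/+, and MUT retinas were Chx10Cre;Neurog2CKO/CKO. The floxed allele was thus present in all 3 groups, and Cre only in HET and MUT, from a driver active in retinal progenitors. Labels do not say whether a sample was a separate animal, nor whether retinas were pooled. No Cre-only group and no group without the floxed allele is used here.

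The values are FPKM, fragment counts scaled to the length of the transcript and to the mapped fragments of the library. They are the authors' values for each group, with its 5 samples combined, so no value per sample, standard deviation or read depth can be given, and the depth is unknown. There are 3 tables, WT to HET, WT to MUT and HET to MUT, with 44119, 44526 and 43959 transcript rows. Each gives a log2 fold change, a test statistic, a p-value and a q-value, which is the p-value adjusted by the authors over their table. An error written after ± below is the log2 fold change divided by that test statistic, an implied standard error. The deposited p-values go no lower than 5e-05, and the smallest q was 0.0769, 0.0388 and 0.0762 in the 3 tables. A row was called at q under 0.05, and a p under 0.05 was counted as a second, looser rule. Each group enters a pair of tables, so the comparisons share samples.

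The start of a host gene and the boxes of a snoRNA are what the members' known biology turns on, so these are printed first. The next lines give 25 bases before and 25 from the RefSeq start of transcription (GRCm38.p6), 5' to 3', with a run of 6 or more C or T within 10 bases of the start in capitals. They lie at chr19:8723462-8723511 (plus strand) for Snhg1, chr9:88522873-88522922 (minus) for Snhg5, chr3:123508312-123508361 (minus) for Snhg8, chr4:132308653-132308702 (plus) for Snhg12, chr1:161035141-161035190 (plus) for Gas5, chr4:132353662-132353711 (minus) for Snhg3 and chr2:158375688-158375737 (plus) for Snhg11.
Snhg1: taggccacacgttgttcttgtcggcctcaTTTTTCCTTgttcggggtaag
Snhg5: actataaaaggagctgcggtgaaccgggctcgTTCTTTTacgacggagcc
Snhg8: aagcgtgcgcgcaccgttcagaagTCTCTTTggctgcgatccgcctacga
Snhg12: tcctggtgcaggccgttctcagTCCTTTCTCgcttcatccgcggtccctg
Gas5: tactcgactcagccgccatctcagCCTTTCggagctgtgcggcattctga
Snhg3: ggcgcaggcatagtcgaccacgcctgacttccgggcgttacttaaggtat
Snhg11: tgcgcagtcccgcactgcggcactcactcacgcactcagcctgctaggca

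A pyrimidine run was found in 5 of the 7 members with a RefSeq promoter entry, against 29.1% of 27025 promoters searched the same way. In Snhg8, as in Snhg12 and Gas5, the run covered the start base, in Snhg1 and Snhg5 it lay after it, and Snhg3 and Snhg11 had none in this window. The RefSeq start of Snhg8 lies 68 bases inside the 5' end of its longest-reaching GENCODE transcript. The RefSeq promoter entries run from 250 bases before the start to 50 after it. Within them, the E-box letters CANNTG, which read the same on both strands, occurred in 2 of 7 members, Snhg11 and Snhg12, against 72.1% of all promoters. CAGATG, searched on both strands and itself a case of CANNTG, occurred in 0 of 7 against 17.2%. These are matches of letters, and binding was not measured.

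A pair of snoRNAs inside the members is also shown, since their own rows are described with their hosts. Snora24, in an intron of Snhg8 (chr3:123507937-123508066, minus strand, GRCm38), is given with the H box (ANANNA) and the ACA box in capitals. Snord22, inside Snhg1 (chr19:8725866-8725991, plus strand), is given with the 3' D box (CTGA) in capitals, the C box letters TGATGA having no exact match.
Snora24: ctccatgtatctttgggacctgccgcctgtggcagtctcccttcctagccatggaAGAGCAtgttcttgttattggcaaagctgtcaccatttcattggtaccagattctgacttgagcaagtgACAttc
Snord22: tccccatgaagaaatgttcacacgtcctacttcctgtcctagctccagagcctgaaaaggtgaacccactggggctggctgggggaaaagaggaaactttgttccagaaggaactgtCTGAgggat

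Snhg8 lies on chromosome 3 (mm10, 123507552 to 123508404, minus strand), 4.12 Mb from Neurog2 on the same chromosome. Its summed level was 14.7 and 15.3 FPKM in WT in the tables with HET and MUT. It was 3.13 and 3.14 FPKM in HET, and 2.02 FPKM in MUT in each of its tables. WT was thus the high group, and both groups with Cre were low, with the MUT value the lower. Summed over transcripts, the gene was 7.28-fold lower in MUT than in WT.

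Nearly all of this level came from Snhg8-201, a transcript of 448 nt in 3 exons. From WT to MUT it fell from 14.8 to 2.02 FPKM (log2 fold change -2.87 ± 1.01, p = 5e-05, q = 0.0388, in the authors' deposited table). From WT to HET the authors' deposited table listed 14.7 and 3.13 FPKM, a log2 fold change of -2.23 ± 0.95 with p = 0.0082, which missed the adjusted threshold (q = 0.9997). Between HET and MUT, the authors' deposited table listed 3.14 and 2.02 FPKM, a log2 fold change of -0.64 ± 0.95 with p = 0.2588. Whether the WT to MUT and WT to HET differences themselves differ was not tested. In bulk tissue, fewer cells of a type and less RNA per cell cannot be told apart.

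The call rests on the authors' p-value. The test statistic of Snhg8-201 was -2.86 in the authors' deposited table for WT to MUT. Read against a normal curve, the authors' statistic corresponds to p = 0.00427, which becomes 1.00 on Benjamini-Hochberg adjustment over that table, so that the call would not be made.

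A second transcript, Snhg8-202, keeps both introns and so holds Snora24. It was listed only in the WT to MUT table, at 0.537 FPKM in WT and 8.28e-06 in MUT (p = 0.28485 in the authors' deposited table), which is why the WT values of the gene differ by 4.12% between tables. The annotated Snhg8-203 is not analysed here.

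**Figure D1:**
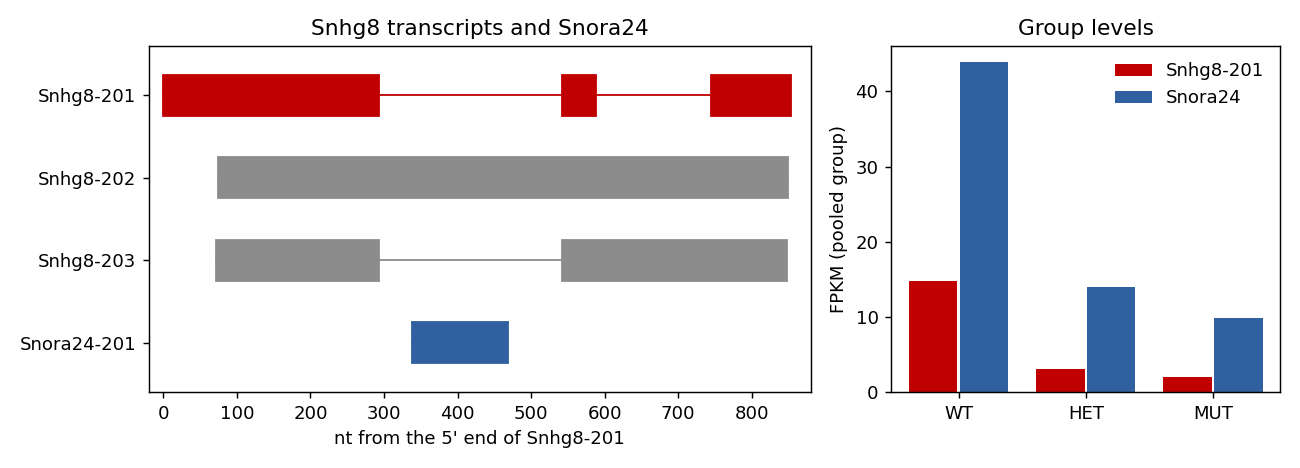
Left, the exons (boxes) of the annotated Snhg8 transcripts and of Snora24, in nt from the 5' end of Snhg8-201. Right, the pooled FPKM of Snhg8-201 (red) and Snora24 (blue) in WT, HET and MUT, where both are highest in WT: 14.8 against 2.02 FPKM in MUT for Snhg8-201, and 43.8 against 9.90 FPKM for Snora24, which passed no test.

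Snora24, a box H/ACA snoRNA that guides pseudouridylation of 18S ribosomal RNA, is 130 nt long and lies in the 5' intron of Snhg8-201, 338 to 467 nt from the 5' end. It was at 43.6 FPKM in WT and 14.0 in HET in the table of those groups (log2 fold change -1.64 ± 6.76, p = 0.2013, in the authors' deposited table). Against MUT it was at 43.8 FPKM in WT and 9.90 in MUT, a log2 fold change of -2.15 ± 1.43 that did not pass the test (p = 0.26075, in the authors' deposited table). Its listed order over the groups was that of its host, WT above HET above MUT, without a call in any table. From HET to MUT the log2 fold change was -0.51 ± 6.28 (p = 0.67865, in the authors' deposited table), so the place of HET in that order is uncertain.

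The neighbour of Snhg8 within 5 kb was Prss12, which encodes the secreted serine protease neurotrypsin. It was low in all groups, at 0.424 FPKM in WT and 0.558 in HET (lowest p = 0.2807), and at 0.426 in WT and 0.522 in MUT (lowest p = 0.3925, in the authors' deposited table). Prss12 was thus listed higher in both groups with Cre, opposite in sign to Snhg8, with no call.

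Among the 7 members, the order of levels was the same in all 3 groups: Gas5, Snhg5, Snhg6, Snhg12, Snhg3, Snhg11 and Snhg8. Gas5 was far above the others, at 421 FPKM in WT, ranking 175 of 15947 genes. Snhg5 followed at 56.1 FPKM, Snhg6 at 40.3, Snhg12 at 34.2, Snhg3 at 28.6, Snhg11 at 16.2 and Snhg8 at 15.3, ranks 1839 to 6384. Without values per sample, it cannot be said which neighbours in this order differ beyond their spread. The values of Snhg11 and Snhg8 in WT were the closest, and they separated in HET (14.1 against 3.13 FPKM) and MUT (15.8 against 2.02 FPKM).

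**Figure D2:**
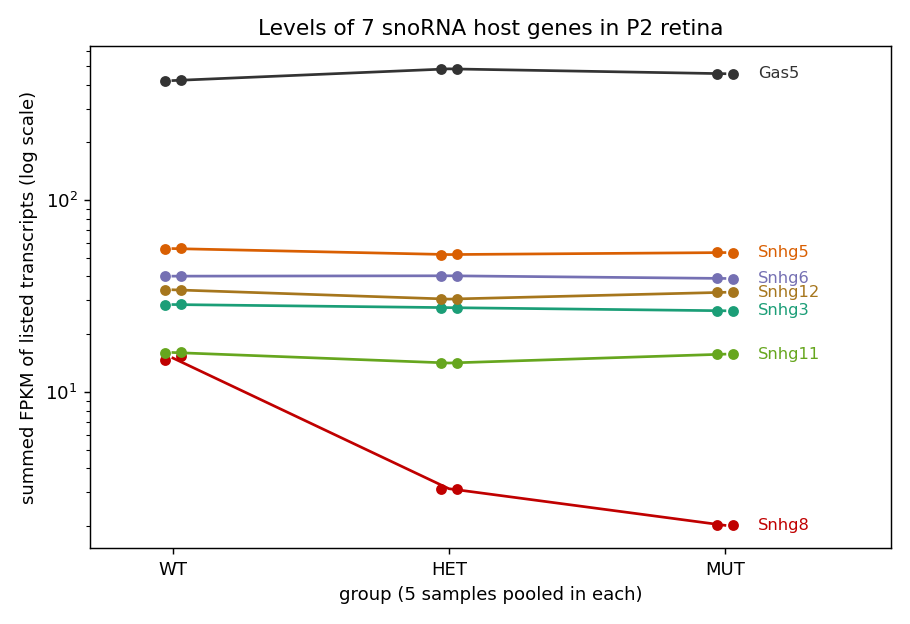
Summed FPKM (log axis) of the listed transcripts of each of 7 snoRNA host genes in WT, HET and MUT, each group 5 pooled samples. Each group has a point from each of its tables, and lines join their means. Snhg8 runs from about the level of Snhg11 in WT (15.3 and 16.2 FPKM) to 2.02 FPKM in MUT, while the other lines stay nearly level.

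At the loose rule of p under 0.05, 1 of 47 member transcripts was called from WT to HET, where 0.515% of all rows were, 1 of 48 from WT to MUT, where 0.851% were, and 0 of 49 from HET to MUT, where 0.814% were. Every called row was Snhg8-201. At q under 0.05 the counts were 0 of 47 (0% of all rows), 1 of 48 (0.115%) and 0 of 49 (0%). With so few members the shares rest on that transcript.

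The median log2 ratio of summed FPKM (with 0.1 added) over the 7 members was -0.10 from WT to HET, -0.05 from WT to MUT and -0.05 from HET to MUT. Over all genes at 0.5 FPKM or more it was 0.01, 0.01 and 0.00. In those comparisons 5, 6 and 4 of the 7 members lay below 0, where 46.8%, 46.2% and 47.9% of all genes did. Without Snhg8, an exclusion not planned beforehand, the members' medians were -0.08, -0.04 and -0.01. The members then ranged from -0.18 to 0.20, from -0.11 to 0.12 and from -0.09 to 0.15. The central 80% of genes at 10 FPKM or more lay between -0.10 and 0.13, between -0.11 and 0.14, and between -0.09 and 0.10. Of the 6 members other than Snhg8, 4 lay outside these bounds from WT to HET (Snhg5, Snhg11, Snhg12 and Gas5), 1 from WT to MUT (Snhg3) and 2 from HET to MUT (Snhg11 and Snhg12), by small amounts on the log2 scale.

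**Figure D3:**
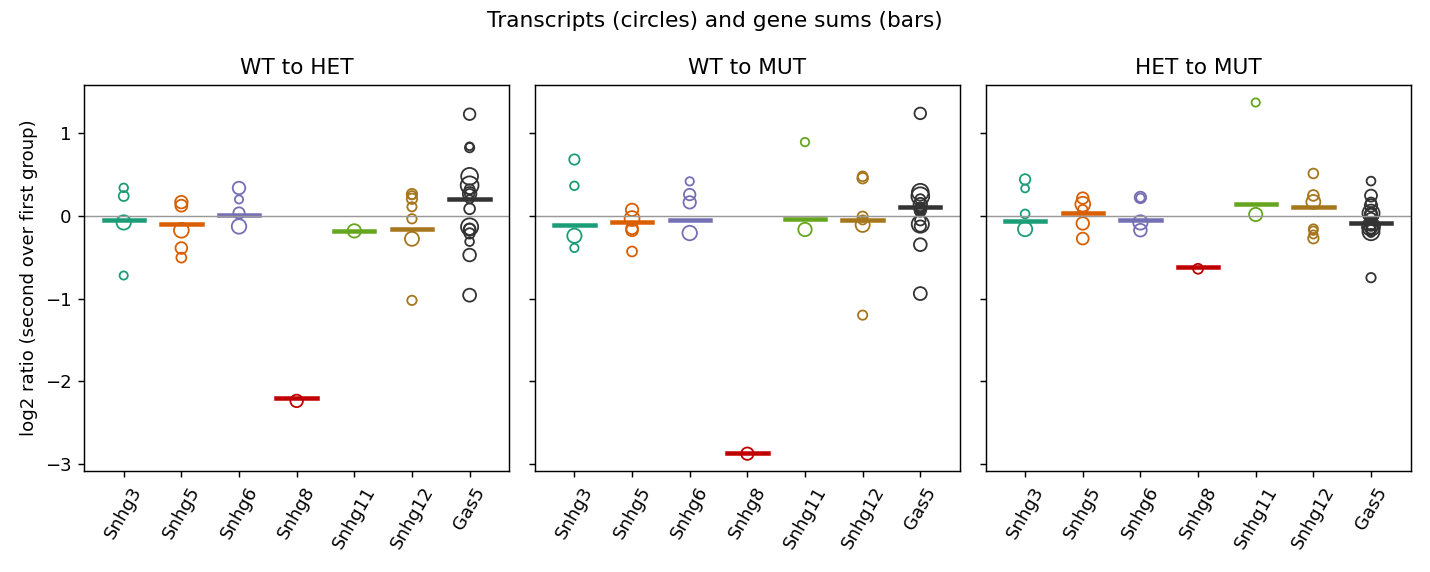
Log2 ratios of each member in the 3 comparisons. Bars are the ratios of summed FPKM with 0.1 added, and circles are the authors' log2 fold changes of transcripts at 1 FPKM or more in either group, larger for more abundant ones. The Snhg8 bars are at -2.20, -2.86 and -0.61, and all bars of other members lie between -0.18 and 0.20, although their minor transcripts spread from -1.20 to 1.37.

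Gas5, whose introns hold 9 box C/D snoRNA sites, had 23 listed transcripts. Its summed level was 419 FPKM in WT and 483 in HET (log2 ratio 0.20), 421 in WT and 456 in MUT (0.12), and 484 in HET and 456 in MUT (-0.09). Spliced transcripts made up most of it. Gas5-210, of 557 nt, was at 151 FPKM in WT and 195 in HET (log2 fold change 0.37 ± 0.82, p = 0.2914, in the authors' deposited table). Against WT at 152 FPKM it was at 179 in MUT (0.24 ± 0.83, p = 0.47145, in the authors' deposited table).

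Gas5-209, of 346 nt, was listed on the same side of WT, at 78.0 FPKM in WT against 109 in HET and 78.5 in WT against 95.8 in MUT. Gas5-224, of 502 nt, was on the other side, at 116 FPKM in WT against 106 in HET, and 117 in WT against 109 in MUT. None of these 3 passed the test. Retained-intron transcripts made up 17.3% of Gas5 in WT, 14.6% in HET and 15.3% in MUT. Within that class, Gas5-213 was at 14.6 FPKM in WT and 7.64 in MUT (p = 0.34335), and Gas5-214, whose exon holds a snoRNA, at 3.46 in WT and 8.18 in MUT (p = 0.52895, in the authors' deposited table). The abundant spliced transcripts moved by less than their implied errors, and so did these minor ones. Summed over transcripts of 1000 nt or more alone, the Gas5 log2 ratios had the other sign, at -0.39, -0.23 and 0.17.

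**Figure D4:**
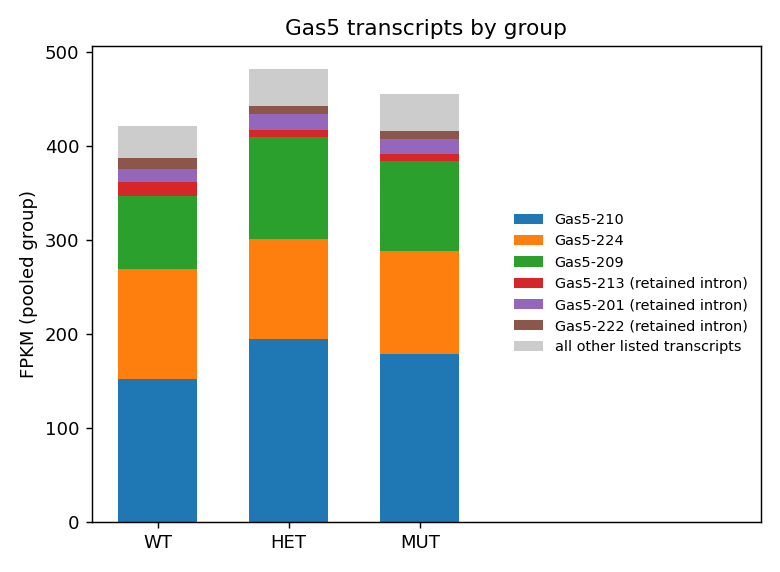
Pooled FPKM of Gas5 transcripts in WT, HET and MUT, stacked, with the 6 most abundant in WT shown by name. The total is 421 in WT, 483 in HET and 456 in MUT, and Gas5-210, Gas5-224 and Gas5-209 make up most of each bar.

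Snhg5 (chromosome 9, 88521050 to 88522929) hosts a pair of snoRNA sites and was at 55.8 FPKM in WT against 52.0 in HET (log2 ratio -0.10), and 56.1 in WT against 53.3 in MUT (-0.07). HET and MUT, at 52.1 and 53.3 FPKM, were close (0.03). Its most abundant transcript, ENSMUST00000183030, was at 30.5 FPKM in WT and 27.1 in HET (-0.17 ± 0.53, p = 0.45195), and at 30.7 in WT and 30.0 in MUT (-0.03 ± 0.52, p = 0.88715, in the authors' deposited table). Transcripts with retained introns made up 20.6% of Snhg5 in WT, 22.4% in HET and 21.0% in MUT. A pair of Snhg5 transcripts with no annotation here, ENSMUST00000183030 and ENSMUST00000182900, made up 54.7% and 11.7% of the gene in WT, so the full share of unspliced forms is not known.

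Snhg6 (chromosome 1, host of 1 snoRNA site) was the member with the smallest range over the groups. It stood at 40.1 FPKM in WT against 40.3 in HET (log2 ratio 0.01), and at 40.3 in WT against 39.1 in MUT (-0.04). Its most abundant transcript, Snhg6-203 of 473 nt, was listed at 26.2 FPKM in WT and 22.8 in MUT (-0.20 ± 0.71, p = 0.51, in the authors' deposited table), while its other 3 were each listed higher in MUT.

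Snhg12 and Snhg3 are neighbours on chromosome 4. Snhg12 hosts 4 snoRNA sites and was at 34.0 FPKM in WT against 30.5 in HET (log2 ratio -0.16), 34.2 in WT against 33.1 in MUT (-0.05), and 30.5 in HET against 33.1 in MUT (0.11). HET was the low group, and its main transcript, Snhg12-206, was at 20.7 FPKM in WT and 17.1 in HET (-0.28 ± 0.77, p = 0.40525, in the authors' deposited table). Transcripts with a snoRNA inside their exons made up 36.4% of Snhg12 in WT, 40.2% in HET and 38.8% in MUT, the largest such share found, although a pair of Snhg5 transcripts has no annotation here.

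Snhg3 was at 28.5 FPKM in WT against 27.5 in HET (log2 ratio -0.05), and 28.6 in WT against 26.5 in MUT (-0.11), so that MUT was lowest. Its main transcript, Snhg3-204 of 437 nt, was at 23.7 FPKM in WT and 20.1 in MUT (-0.24 ± 1.26, p = 0.674, in the authors' deposited table). The authors' locus of Snhg3 (132331919 to 132353686) also spans Rcc1, the exchange factor for the GTPase Ran, and reads of overlapping genes may be split in ways that cannot be checked here. Rcc1 was at 53.3 FPKM in WT and 54.7 in MUT. Trnau1ap, a selenocysteine tRNA-associated protein gene within 5 kb of the authors' loci of both hosts, was at 55.7 FPKM in WT and 60.6 in MUT. Such a locus can reach well past its gene, as Snhg3 itself spans only 132348014 to 132353686. Distances here are from the authors' loci, which for Gas5 and Snhg6 are also longer than the genes. Hosted snoRNAs aside, no gene listed within 5 kb of the loci of the 7 members had a p under 0.05 in the 3 tables. Snhg5 had no such neighbour. The surroundings of Snhg1 were not searched.

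Snhg11 is annotated as protein coding in GENCODE release M21, at odds with its listing as a non-coding host, and its main transcript Snhg11-201, of 5864 nt, is annotated so too. The gene hosts a pair of snoRNA sites and was at 15.97 FPKM in WT against 14.1 in HET (log2 ratio -0.18), 16.2 in WT against 15.8 in MUT (-0.04), and 14.2 in HET against 15.7 in MUT (0.15). Snhg11-201 had the smallest error of the members, -0.18 ± 0.29 from WT to HET (p = 0.1629) and -0.16 ± 0.28 from WT to MUT (p = 0.20345, in the authors' deposited table). Retained-intron forms were 8.27% of Snhg11 in WT and 14.6% in MUT, resting on Snhg11-204 at 0.873 FPKM in WT and 1.62 in MUT (p = 0.6764, in the authors' deposited table).

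For transcripts at 1 FPKM or more other than Snhg8-201, the lowest p was 0.1629 over 38 rows from WT to HET, 0.20345 over 37 from WT to MUT and 0.34165 over 39 from HET to MUT in the authors' deposited tables. The median implied error of the members' rows was 2.15, 2.03 and 1.69 on the log2 scale. With such errors, a several-fold difference in most single transcripts would not have been detectable in these tables.

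The 8 members' spans hold 29 annotated snoRNA sites, and 9 snoRNAs inside them had a row, of 126 to 205 nt. Of these, 5 of 9 were listed lower from WT to HET, 7 of 8 from WT to MUT and 8 of 9 from HET to MUT, with median log2 fold changes of -0.31, -1.77 and -1.29 in the authors' deposited tables. Snord22, a box C/D snoRNA inside Snhg1 needed for 18S ribosomal RNA maturation in Xenopus oocytes, was the most abundant and was called. It was at 495 FPKM in WT and 345 in HET (log2 fold change -0.52 ± 0.95, p = 0.1851, in the authors' deposited table). From WT to MUT it fell from 498 to 67.5 FPKM (-2.88 ± 0.90, p = 5e-05, q = 0.0388, in the authors' deposited table). From HET to MUT it was listed at 346 and 67.5 FPKM (-2.36 ± 0.82, p = 5e-05, q = 0.0762, in the authors' deposited table). As for Snhg8-201, the authors' WT to MUT statistic read against a normal curve corresponds to p = 0.00144, which becomes 1.00 once adjusted over the table.

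The Snora73 pair, both 205 nt and inside Snhg3, are near-identical copies between which reads may be split. Snora73a was at 18.0 FPKM in WT and 4.24 in MUT (p = 0.22485), and Snora73b at 20.6 in WT and 7.49 in MUT (p = 0.4143, in the authors' deposited table), while Snhg3 itself was at 28.6 and 26.5 FPKM. Inside Snhg12, Snora16a was at 6.05 FPKM in WT and 2.34 in MUT (p = 0.5113), and Snora44 at 2.51 and 0.432 (p = 0.34575, in the authors' deposited table). Snora61 was listed at 1.06 FPKM in WT and 9.28 in HET (p = 0.21135), and at 9.31 in HET and 0.4996 in MUT (p = 0.23435, in the authors' deposited table). The pair inside Snhg11 was low, Gm25187 at 2.41 FPKM in WT and 1.83 in MUT and Gm25129 at 2.55 and 5.00. Apart from Snord22, no snoRNA of the members had a p under 0.05.

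**Figure D5:**
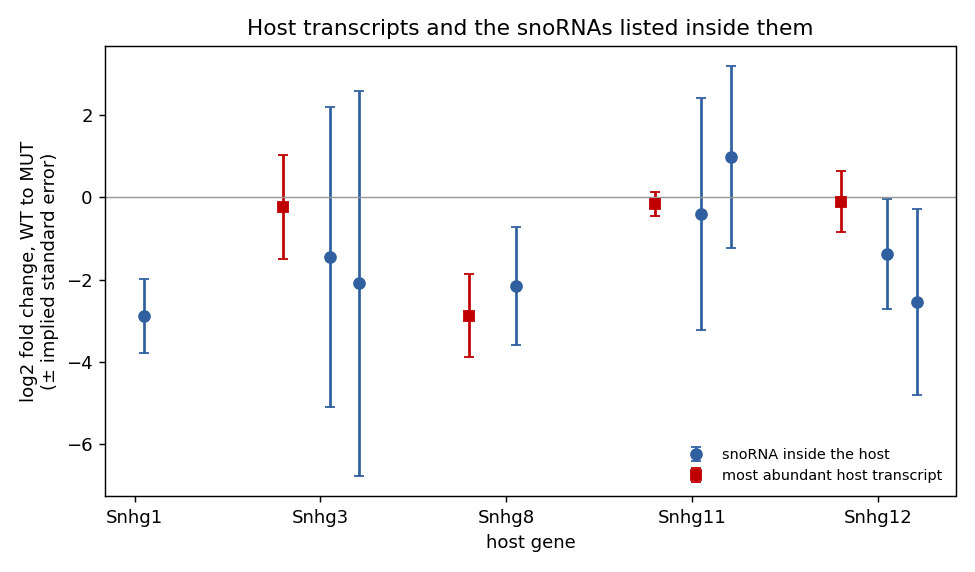
Log2 fold change from WT to MUT, with its implied standard error, for the most abundant transcript of each host (red squares) and the snoRNAs listed inside it (blue circles). Snhg1 has no row of its own and Snhg5, Snhg6 and Gas5 have no listed snoRNA. Snhg8-201 (-2.87) and Snora24 (-2.15) are both low, as is Snord22 (-2.88), while the Snhg3, Snhg11 and Snhg12 transcripts are near 0 and their snoRNAs have wide errors.

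Low values in MUT were common among the listed snoRNAs as a whole, those inside the members included. Of all rows of GENCODE type snoRNA at 1 FPKM or more, 69 of 90 were below 0 from WT to HET, 75 of 82 from WT to MUT and 54 of 68 from HET to MUT, with medians of -0.78, -2.15 and -1.24 in the authors' deposited tables. Rows of type lincRNA had medians of 0.14, 0.18 and 0.03. Rows of type processed transcript, the GENCODE type of the Snhg8 gene, had medians of 0.07, 0.10 and 0.04. Among transcripts of 300 to under 500 nt, the length class of Snhg8-201, the median from WT to MUT was 0.23, 30.4% lay below 0 and 10% lay below -0.50, and 1.07% had a p under 0.05 in the low direction. Other annotated member transcripts of that length class at 1 FPKM or more went both ways. Snhg3-204, Snhg6-203 and Snhg3-203 were at -0.24, -0.20 and -0.39. Gas5-209, Snhg6-204, Snhg3-205 and Gas5-206 were at 0.29, 0.17, 0.68 and 0.21. Transcripts under 300 nt of all types had medians of 0.03, -0.03 and -0.17 in the 3 comparisons, and 48.7%, 51.2% and 57.9% lay below 0. The part of the shift of the snoRNA rows in the value of Snhg8 was not tested.

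Other noncoding hosts showed no call. Of 16 further ones, 11 were measured at 0.5 FPKM or more, and none had a transcript with p under 0.05 in any comparison, where 1.46%, 2.38% and 2.23% of all genes at that level had one. Their medians were -0.19, -0.04 and 0.16, and 9, 8 and 3 of 11 lay below 0. Rian, an imprinted host and the most abundant of them, was at 177 FPKM in WT and 198 in MUT. Snhg7, named after its values were seen, was at 4.31 FPKM in WT and 0.000168 in HET (p = 0.23975), and at 4.34 in WT and 1.37 in MUT (p = 0.3114, in the authors' deposited table), lower in both groups with Cre but without a call. Of 27 measured protein-coding hosts, led by Rpl13a at 3124 FPKM in WT, again none was called, and their medians were -0.01, 0.00 and 0.01.

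Of 19 measured snoRNP proteins and assembly factors, 0 were called from WT to HET and WT to MUT, and the medians were 0.03 in each. From HET to MUT a minor transcript of Shq1, an assembly factor of H/ACA particles, had p = 0.04525 (0.661 to 1.67 FPKM, q = 0.9996, in the authors' deposited table), while the gene's sum was 5.79 and 5.96 FPKM. A transcript with p under 0.05 was found there in 2.23% of all genes at 0.5 FPKM or more. Nop58, a core box C/D protein and the most abundant of the list, was at 139 FPKM in WT and 152 in MUT.

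Of 20 NMD factors, 1 was called at p under 0.05 against WT in each comparison. Of all genes at 0.5 FPKM or more, 1.46% and 2.38% had a transcript at that p, and 2.23% did from HET to MUT. A transcript of Rnps1, a component of the exon junction complex, was at 15.8 FPKM in WT and 7.74 in HET (p = 0.02745), and at 15.9 in WT and 6.89 in MUT (p = 0.01415, in the authors' deposited table), both with q of 0.9995 or more. Summed over its transcripts, Rnps1 was at 66.1 FPKM in WT against 47.8 in HET (log2 ratio -0.47), and at 66.5 in WT against 46.0 in MUT (-0.53). From HET to MUT 0 of 20 were called. Magoh, another exon junction protein and the most abundant of them, was at 184 FPKM in WT and 189 in MUT. Of 10 measured NMD target genes, Gadd45a, a stress-response gene, was at 18.7 FPKM in WT and 14.3 in MUT (p = 0.0392), and at 19.3 in HET and 14.2 in MUT (p = 0.0048, in the authors' deposited table). Atf4, the stress-response transcription factor and the most abundant target, was at 157 FPKM in WT and 154 in MUT. The medians of the factors were -0.04, -0.03 and 0.02, and those of the targets -0.01, -0.02 and -0.01. Of 16 genes of the mTOR pathway and TOP regulation, and of 14 TOP mRNAs, 0 were called in any comparison, with all medians between -0.01 and 0.04. The most abundant were Cnbp, a nucleic acid-binding protein gene, at 337 FPKM in WT and 362 in MUT, and Tpt1, a translationally controlled tumour protein, at 2819 and 2030 FPKM. The main Tpt1 transcript did not follow that sum, at 1613 FPKM in WT and 1675 in MUT (log2 fold change 0.05 ± 0.66, p = 0.84235, in the authors' deposited table).

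The remaining values bear on the samples. Neurog2, the targeted gene, fell from 59.5 to 10.6 FPKM from WT to MUT (-2.49 ± 0.32, q = 0.0388), and was at 59.2 in WT and 42.4 in HET (q = 0.0769, in the authors' deposited table). The retinal markers read here ran from Pou4f2, of ganglion cells, at 8.48 FPKM in WT to Pax6, of progenitors and inner retinal neurons, at 384. The 14 microglial markers were all listed higher in HET and in MUT than in WT, none at 0. Their summed level was 97.3 to 98.4 FPKM in WT, 123 in HET and 139 in MUT, and 2 and 6 of the 14 had p under 0.05. Of all genes at 0.5 FPKM or more, 1.46% from WT to HET and 2.38% from WT to MUT had a transcript at that p. Of 6 measured endothelial markers the sum was 136 in WT, 143 in HET and 155 in MUT, most of it Kdr. From WT to HET, Kdr was at 104 and 107 FPKM, so the sum mainly follows that gene. Others of the list were left out at under 0.5 FPKM, such as Pecam1 at 0.271 in WT and 0.457 in HET. Within that list Cldn5, a tight junction protein gene, rose from 11.8 to 19.2 FPKM from WT to MUT (q = 0.0388), and Rgs5, a pericyte gene, was at 0.890 and 1.71 (p = 0.00045, in the authors' deposited table). The 6 measured astrocyte markers summed to 19.2 to 19.5 FPKM in WT, 19.7 to 20.0 in HET and 25.4 in MUT, where 6 of 6 were above WT and 1 had p under 0.05. Lens markers were low, at sums of 4.57 FPKM in WT against 6.55 in HET and 4.54 in WT against 4.26 in MUT. The medians of 16 cell cycle genes were 0.12, 0.11 and -0.01, with 0 called.

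The sex-linked genes also differed between the groups. Xist, transcribed from the inactive X chromosome of females, stood at 98.3 FPKM in WT, 63.2 in HET and 135 in MUT. A transcript of Xist had p = 0.0471 from WT to MUT (q = 0.9995) and p = 0.0011 from HET to MUT (q = 0.7477) in the authors' deposited table. The Y-linked gene Kdm5d was at 3.73 FPKM in WT and 0.00117 in MUT, and at 5.41 in HET and 0.00117 in MUT, with a transcript at p = 0.03785 between HET and MUT in the authors' deposited table. Eif2s3y, also Y-linked, was at 0.357 FPKM in WT and 0.0142 in MUT, so that both were near 0 in MUT. From WT to HET, where more of its level was listed, Eif2s3y stood at 13.8 and 23.8 FPKM. The Y-linked Ddx3y was at 6.14 and 9.18 FPKM there, and Uty at 1.43 and 2.41. Sums cover the transcripts listed for each comparison, so 0.357 FPKM is not the full WT level of Eif2s3y. The part of cell makeup or of the sexes of the samples in the members' values was not tested.

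By their ratios in the 3 comparisons, the genes most like the median of the members were Iqce, Impdh2, Apbb1, Tnrc18 and Hemk1, at Euclidean distances of 0.047 to 0.054 on the log2 scale, among 7793 genes at 10 FPKM or more in every group. The 6 members other than Snhg8 lay within 0.348 of that median, and so did 92.2% of those genes. Snhg8 lay at 3.56. For Snhg8 itself the filter was wider, 8205 genes at 10 FPKM or more in any group, a comparison chosen after its values were seen. Snhg8 passes that filter only through WT, and genes that are high in WT alone are admitted by it too. The nearest genes were Snord104 (distance 0.84), Snora24 (0.93), Fen1 (1.20), Snora64 (1.34) and Lars2 (1.40). Of these, 3 are snoRNAs, Fen1 encodes a flap endonuclease and Lars2 the mitochondrial leucyl-tRNA synthetase.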

How the data were processed

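RNA was prepared with a Zymo Quick miniprep kit and libraries with a standard Illumina protocol, per the labels' protocols. The tools Bowtie2, Cufflinks and Cuffdiff and the build mm10 are named, with no role, per the submitters' processing notes. Versions, poly(A) selection and strandedness are not given in the sources used here. The authors deposited FPKM per transcript and pooled group, log2 fold changes, a test statistic (score), p-values and q-values.

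From these, FPKM was summed per symbol, log2 ratios were taken with a pseudocount of 0.1, and implied errors computed (Python 3.11.15, pandas 2.3.3, numpy 2.4.6, scipy 1.17.1, matplotlib 3.10.9). Tests are the authors'. Depth and precision per sample are unknown. Scripts were tested on simulated data. Annotation came from GENCODE M21, which matched 48 of 50 member transcripts. Named genes are the members, neighbours within 5 kb of their loci as the authors give them, and genes of the lists. For each list these are up to 4 genes per comparison with p under 0.05 plus the most abundant. Of the cell type lists, summaries are given in place of names. The members and lists were chosen with earlier results of these data known. A marker of the retinal list is not reported here.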

Additional observations from a re-analysis of the deposited data

How the results depend on the processing

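With a q threshold of 0.01 the count of member transcripts called from WT to MUT went from 1 to 0, and with p-values from a normal curve, adjusted over the table (an alternative chosen after seeing the data), it also went to 0. That adjustment called 39 rows of the WT to MUT table against 51 by the authors' q, 29 against 0 from WT to HET and 26 against 0 from HET to MUT. The other counts of called members kept their values under the other thresholds, adjustments and filters tried. All 27 medians under alternatives lay between -0.33 and -0.01. They moved by less than the median implied error of the members' most abundant transcripts (0.77, 0.74 and 0.47). That error exceeds the medians themselves, so few alternatives could have moved them beyond it. With transcripts of 1000 nt or more the medians rested on 4 members, without Snhg8. From WT to MUT the median then went from -0.05 to -0.33. Of 159 values of single members, 156 moved by less than the implied error, and 9 had another sign than the value reported, 0 of them of Snhg8. With transcripts of 1000 nt or more these were Gas5 in the 3 comparisons (-0.39, -0.23 and 0.17), Snhg12 from HET to MUT (-0.24) and Snhg5 from WT to HET and HET to MUT. The rest were Snhg6 from WT to HET (-0.12 with its most abundant transcript, -0.0030 with all genes centred) and Snhg5 from HET to MUT (-0.0013 with no snoRNA in exons). That last setting also dropped the pair of Snhg5 transcripts with no annotation, and kept 11.8% of Snhg5 in HET. Like leaving out Snhg8, it was not planned beforehand. The 3 that moved by more than the implied error were Snhg5 summed only over transcripts of 1000 nt or more, at 0.94, -1.75 and -2.68, which leaves Snhg5-201 alone. Snhg8 ranged from -2.23 to -1.93, from -2.92 to -2.44 and from -0.63 to -0.46, and has no transcript of 1000 nt.

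No paired analysis was possible because the values are combined over the 5 samples of each group. Leaving out each replicate was not run for the same reason, so whether 1 sample sets the Snhg8 or Snord22 value was not tested.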
